A study of Rattus norvegicus with 10 samples.

Results

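The cytokines IL-1 and TNF, the danger receptor TLR4 with its ligand HMGB1, and the chemokines CCL2, CCL3 and CXCL10 were followed in the hippocampus of rats with chronic epilepsy. A set of 10 genes was chosen by symbol, and the RefSeq transcript identifier of each row of the count matrix was matched to a symbol. Of the 10 genes, 9 were found among the 32041 rows, each with 1 row, and the gene of the IL-1 receptor Il1r1 was not matched to a row and was not analysed here. The 9 genes are Il1a (NM_017019), Il1b (NM_031512), Tnf (NM_012675), Hmgb1 (NM_012963), Tnfrsf1a (NM_013091), Tlr4 (NM_019178), Ccl2 (NM_031530), Ccl3 (NM_013025) and Cxcl10 (NM_139089). A total of 8 of them were tested, and Ccl3 fell under the filter on low counts. Levels are given as counts and as CPM, which are counts scaled for the depth of each library with trimmed mean (TMM) factors.

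All 10 animals were male Sprague-Dawley rats with a bipolar electrode in the left lateral amygdala and screw electrodes in the skull. The 5 sham rats (rats 1 to 5) were matched in age and received no current. In the 5 stimulated rats (rats 6 to 10), the electrode delivered 400 µA at 60 Hz over 30 min until status epilepticus set in, which diazepam later stopped. Per the study's methods every stimulated animal went on to have spontaneous seizures. The left hippocampus was taken 3 months after induction, and 1 piece per rat with CA3 and dentate gyrus was sequenced, so each library is 1 animal.

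IL-1α, IL-1β and TNF are cytokines that microglia and other cells release after injury, and HMGB1 is a nuclear chromatin protein that acts as a danger signal once it leaves the cell. IL-1 receptors and TLR4 share the adaptor MyD88, TNFR1 uses its own death domain adaptors, and all of them lead to the transcription factor NF-κB, which is held in the cytoplasm by inhibitors and drives the transcription of chemokines. CCL2 attracts monocytes, CCL3 attracts monocytes and T cells, and CXCL10, which interferon induces, attracts activated T cells. These pathways are among those most often studied in epilepsy, because IL-1β and HMGB1 lower the seizure threshold in rodents.

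The sequences before the transcription start are shown for Cxcl10 and for Ccl7, the neighbour of Ccl2 whose counts were followed beside it. Their group means differed in opposite directions, but neither difference passed adjustment in edgeR's quasi-likelihood test. That of Ccl7 came mostly from stimulated rat 7, and that of Cxcl10 in large part from sham rat 3. The promoter table of RefSeq (build GRCr8) had no entry for Ccl2 and Ccl3. Capitals mark the matches to the consensus of NF-κB and to the AP-1 motif TGANTCA, searched on both strands in the 250 bases before the start. The region of Cxcl10 is chr14:15988816-15989065 and that of Ccl7 is chr10:67513845-67514094, both on the plus strand.
Cxcl10: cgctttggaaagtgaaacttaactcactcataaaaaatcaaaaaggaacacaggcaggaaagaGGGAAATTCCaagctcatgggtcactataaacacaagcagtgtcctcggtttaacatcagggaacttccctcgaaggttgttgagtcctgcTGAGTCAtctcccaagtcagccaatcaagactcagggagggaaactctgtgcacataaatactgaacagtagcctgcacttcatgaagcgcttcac
Ccl7: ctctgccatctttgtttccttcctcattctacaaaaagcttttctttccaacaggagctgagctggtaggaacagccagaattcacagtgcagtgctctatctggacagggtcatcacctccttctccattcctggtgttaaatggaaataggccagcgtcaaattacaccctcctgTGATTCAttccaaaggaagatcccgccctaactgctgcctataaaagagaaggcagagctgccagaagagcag
The Cxcl10 promoter held the NF-κB match GGGAAATTCC, 187 to 178 bases before the start, and the AP-1 match TGAGTCA, 96 to 90 bases before it. The Ccl7 promoter held the AP-1 match TGATTCA, 73 to 67 bases before the start. Among the other genes of the set, Il1r1 held the NF-κB match GGAATGCCCC, 135 to 126 bases before the start, Il1a held the AP-1 match TGACTCA, 12 to 6 bases before the start, and Il1b, Tnf, Hmgb1, Tnfrsf1a and Tlr4 held no match. Of the 33469 promoters in the table, 3.54% held the NF-κB consensus and 6.34% held the AP-1 motif. A match is a description of the letters alone.

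Aligned counts ranged from 13552309 to 24086059 per rat. Unaligned reads made up 32.0 to 45.1% of reads and records of ribosomal RNA 1.82 to 12.2% of aligned counts, and neither measure separated the groups (exact permutation tests, two-sided, p = 0.127 and 0.167). A floor of 3 counts, the most that a count of 0 allows, corresponded to 0.124 to 0.229 CPM per rat, for counting error only. Immediate early genes, which neuronal activity induces, summed to 156 to 198 CPM in sham rats. They summed to 799, 1806 and 724 CPM in stimulated rats 7, 9 and 10 and to 206 and 146 CPM in stimulated rats 6 and 8. Over all 22447 tested features, edgeR's quasi-likelihood test called 0 at an adjusted p-value under 0.05 and 2214 (9.86%) at an unadjusted one under 0.05. Stimulated rat 7 stood apart from its group for several genes below and held the highest CPM for 17.7% of all tested features, so the difference of each tested gene of the set is given with and without this rat, and for further genes wherever its omission lifts the unadjusted p-value above 0.05.

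None of the 8 tested genes passed adjustment over all features, with adjusted p-values from 0.389 for Ccl2 to 0.968 for Il1b. Of the 8, 2 (25%), Ccl2 and Tnfrsf1a, had an unadjusted p-value under 0.05, beside 9.86% of all features. Without stimulated rat 7 the summed counts of Ccl2 and Il1b are 35 and 42, under the filter of 46. The shares of the 8 given here thus depend in part on which genes that rat lifted over the filter. In the other tests and scalings that were tried, the lowest adjusted p-value of any of the 8 was 0.0677, for Ccl2. A total of 5 of the 8 (62.5%) were higher in stimulated rats, beside 52.2% of all features. The median log2 fold change, stimulated over sham, was 0.11 for the 8 genes and 0.01 for all features. Without stimulated rat 7 the median of the 8 was -0.07, 4 were higher, and 1 gene (Cxcl10) had an unadjusted p-value under 0.05, beside 7.54% of all features. That rat had the highest CPM of all rats for 4 of the 8 tested genes (50%), beside 17.7% of all features, and for Ccl3 as well. For 0 of the 9 genes were the groups free of overlap, beside 0.695% of all features with stimulated rats higher and 0.597% with them lower. In a piece of bulk tissue, fewer cells of a type and less RNA per cell cannot be told apart.

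**Figure D1:**
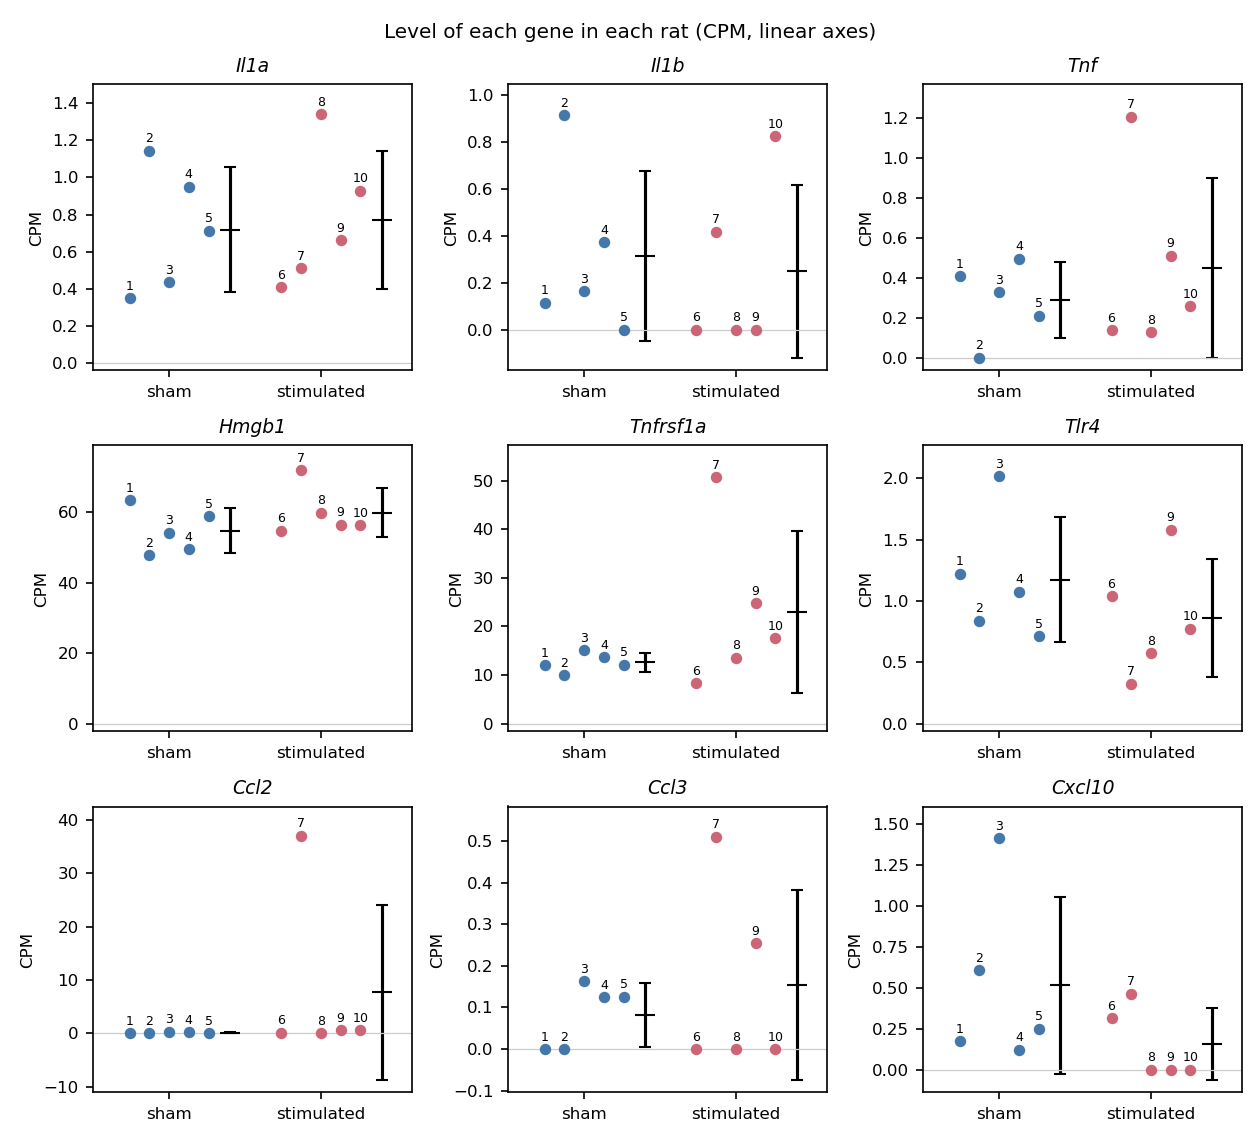
Level of each of the 9 genes in each rat in CPM on linear axes, with sham rats in blue, stimulated rats in red, the rat number above each point, and the mean with its SD (n = 5) as a black bar beside each group. Stimulated rat 7 is at 37.1 CPM for Ccl2 and 50.8 CPM for Tnfrsf1a, above all other rats, while the groups overlap for every gene.

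Of the ligands, the genes of the IL-1 cytokines were counted in small numbers. Il1a, which encodes IL-1α, an alarm cytokine that dying cells release, had 6, 15, 8, 23 and 17 counts in sham rats 1 to 5 and 9, 11, 21, 13 and 18 counts in stimulated rats 6 to 10. The ranges lay almost on top of each other. The means were 0.719 ± 0.336 CPM in sham rats against 0.770 ± 0.375 CPM in the stimulated group (SD, n = 5 each). The fit gave a log2 fold change of 0.09 (SE 0.431, 95% interval -0.84 to 1.01, adjusted p = 0.963). The interval spans from 0.559 to 2.02 times the sham level, so a difference of that size could not be detected at this depth, and the sign of the value turned when sham rat 1, sham rat 3 or stimulated rat 8 was left out. It was 0.20 without rat 7.

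Il1b encodes IL-1β, the form that the inflammasome cuts and releases. It had 2, 12, 3, 9 and 0 counts in sham rats and 0, 9, 0, 0 and 16 counts in stimulated rats. Stimulated rats 6, 8 and 9 and sham rat 5 were at 0, while stimulated rat 10 and sham rat 2 were the highest, so both groups held rats with and without reads. On the log2 scale the fold change was -0.20 (SE 1.10, 95% interval -2.55 to 2.16, adjusted p = 0.968). The direction turned in 4 of the 10 fits that each left out 1 rat, which gave values from -1.33 to 0.58, with -0.47 without rat 7. Without that rat its summed count, 42, is under the filter of 46.

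Tnf encodes the cytokine TNF, the ligand of TNFR1. Its counts were 7, 0, 6, 12 and 5 in sham rats and 3, 26, 2, 10 and 5 in stimulated rats. Stimulated rat 7 had the most reads, 1.21 CPM against a highest sham value of 0.496 CPM in rat 4, and the other stimulated rats lay within the sham range or just above it, with rat 9 at 0.510 CPM. For Tnf the log2 fold change was 0.59 (SE 0.706, 95% interval -0.92 to 2.11, adjusted p = 0.813) and turned to -0.20 without rat 7.

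Hmgb1 was counted far above the floor in every rat, with 1090, 626, 996, 1200 and 1407 counts in sham rats and 1210, 1548, 937, 1107 and 1093 counts in stimulated rats. The levels were 54.8 ± 6.48 CPM in sham rats against 59.9 ± 6.97 CPM in the stimulated group (SD, n = 5 each). Stimulated rat 7, at 71.9 CPM, was above all sham rats, and the other stimulated rats lay between 54.7 and 59.8 CPM, inside the sham range of 47.8 to 63.4 CPM. The log2 fold change of 0.13 (SE 0.107, adjusted p = 0.718) had a 95% interval of -0.10 to 0.36, which in fold terms is 0.931 to 1.28. Without rat 7 it was 0.05. Its interval was the narrowest of the 8 genes.

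Among the receptors, Tnfrsf1a encodes TNFR1, the receptor through which TNF reaches NF-κB and cell death pathways. Its counts were 207, 131, 278, 331 and 289 in sham rats and 183, 1093, 213, 486 and 342 in stimulated rats. In CPM these are 12.0, 10.0, 15.1, 13.7 and 12.1 in sham rats and 8.28, 50.8, 13.6, 24.8 and 17.6 in stimulated rats. Stimulated rats 7, 9 and 10 were above all sham rats, rat 8 was inside the sham range and rat 6 was below it. These 3 rats are the ones with high immediate early genes. The means were 12.6 ± 1.93 CPM in sham rats against 23.0 ± 16.6 CPM in the stimulated group (SD, n = 5 each), and 16.1 ± 6.96 CPM in stimulated rats without rat 7. Its log2 fold change was 0.87 (SE 0.364, 95% interval 0.09 to 1.65, unadjusted p = 0.0320, adjusted p = 0.455), and 0.35 (SE 0.243, unadjusted p = 0.174, adjusted p = 0.789) without rat 7.

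Tnfrsf1b, which encodes the other TNF receptor, TNFR2, was at -0.21 on the log2 scale (SE 0.360, adjusted p = 0.888). Its 43 counts in stimulated rat 7 lay within the sham range of 33 to 76 counts.

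Tlr4 encodes the receptor for bacterial lipopolysaccharide and for HMGB1 and is found mainly on microglia in the brain. It had 21, 11, 37, 26 and 17 counts in sham rats and 23, 7, 9, 31 and 15 counts in stimulated rats. Here rat 7 was the lowest of all rats, at 0.325 CPM, and rat 8 at 0.575 CPM was also below all sham rats, while rat 9 at 1.58 CPM lay near the top of the sham range of 0.712 to 2.01 CPM. For Tlr4 the log2 fold change was -0.44 (SE 0.418, 95% interval -1.34 to 0.46, adjusted p = 0.754), and -0.23 without rat 7.

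The co-receptors of TLR4 had the opposite order in rat 7. Cd14, which hands lipopolysaccharide to TLR4 and was chosen for mention after its values were seen, had 410 counts in stimulated rat 7, where sham rats had 53 to 71 and the other stimulated rats 32 to 98. On the log2 scale it was at 0.98 (SE 0.501, adjusted p = 0.543). Ly96, the gene of the co-receptor MD-2, had 32 counts in rat 7 against 3 to 19 in all other rats (log2 fold change 0.55, SE 0.453, adjusted p = 0.712). Ager, the gene of the HMGB1 receptor RAGE, had 17 counts in rat 7 and 22 to 34 in sham rats, and its log2 fold change was -0.05 (SE 0.435, adjusted p = 0.980).

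**Figure D2:**
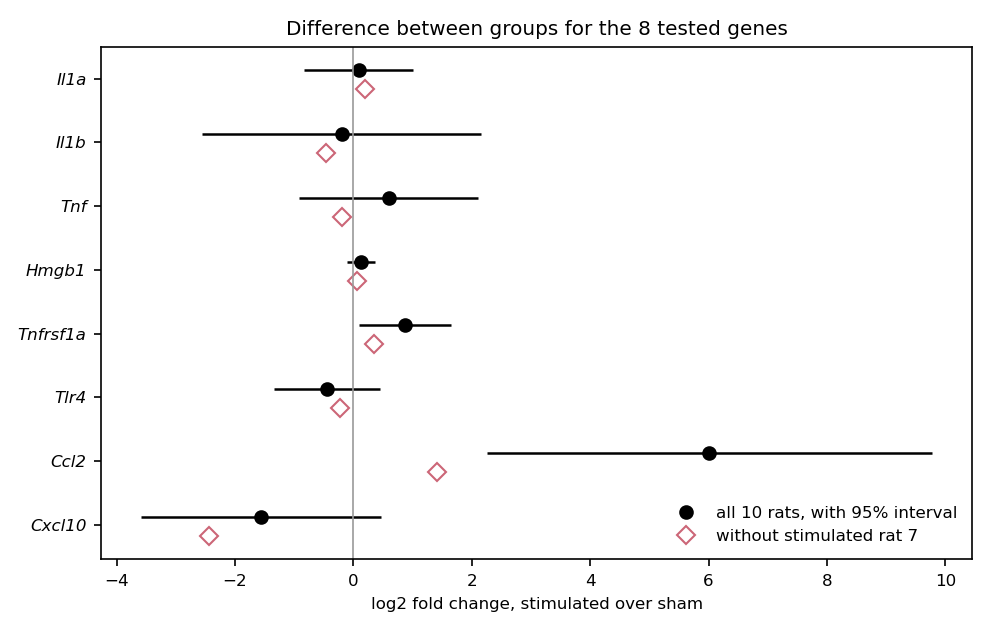
Log2 fold change, stimulated over sham, of the 8 tested genes from edgeR's quasi-likelihood test, as black points with 95% intervals over all 10 rats and as open red diamonds without stimulated rat 7. The intervals of Tnfrsf1a and Ccl2 lie above 0, and both values move towards 0 without rat 7, from 0.87 to 0.35 and from 6.01 to 1.41.

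Of the chemokines, Ccl2, the monocyte attractant also known as MCP-1, had the largest fold change of the 8 genes and nearly all of its reads in 1 animal. It had 0, 0, 6, 4 and 1 counts in sham rats and 2, 798, 0, 11 and 11 counts in stimulated rats. Rat 7 was at 37.1 CPM, rats 9 and 10 were at 0.561 and 0.568 CPM, above the highest sham value of 0.327 CPM, and rats 6 and 8 were inside the sham range. The 798 counts of rat 7 were 326 times the pooled rate of the 5 sham rats (95% exact interval 181 to 655, counting error only). Without rat 7, the stimulated rats had 24 counts against 11 in sham rats, a ratio of 2.75 (95% exact interval 1.30 to 6.22, counting error only). The fit over rats gave a log2 fold change of 6.01 (SE 1.75, 95% interval 2.25 to 9.78, unadjusted p = 0.00416, adjusted p = 0.389) and, without rat 7, of 1.41 (SE 0.985, unadjusted p = 0.174, adjusted p = 0.789). Without rat 7 the summed count of Ccl2 is 35 and that of Ccl7 is 34, under the filter of 46, so both genes were tested only through the counts of this rat. Ccl2 is among the genes that the study lists for this model, as upregulated with an adjusted p-value under 0.05 in its own edgeR test. That list came from the same set of samples, with fewer stimulated animals per the study's methods. The direction of Ccl2 here is therefore not independent evidence.

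Ccl7, which encodes a related monocyte attractant (MCP-3) and lies next to Ccl2 in the gene order of chromosome 10, shared this profile and is also on the study's list. Ccl7 (NM_001007612) had 2, 0, 0, 5 and 1 counts in sham rats and 2, 575, 12, 2 and 10 counts in stimulated rats. Its log2 fold change was 6.01 (SE 1.67, unadjusted p = 0.00296, adjusted p = 0.380), and 2.06 (SE 0.908, unadjusted p = 0.0399) without rat 7. The further chemokine genes of this cluster did not have such a peak in rat 7. Ccl11 had 1 count there and 0 to 8 in sham rats, Ccl12 had 3 counts there and 11 in stimulated rat 9 with none in sham rats, and Ccl1 had 2 counts there and 0 to 2 in sham rats. Ccl2 and Ccl7 are close in sequence, and how the authors counted reads that fit both genes was not stated, so their separate counts are uncertain.

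Ccl3, the gene of MIP-1α, was at the floor of detection, with 0, 0, 3, 3 and 3 counts in sham rats and 0, 11, 0, 5 and 0 counts in stimulated rats. A total of 8 of the 10 rats were at or under 3 counts and 5 were at 0. Rats 7 and 9 had the most reads, and no fold is given at this depth. Without the filter on low counts the quasi-likelihood test gave an unadjusted p of 0.499. Its neighbour in function, Ccl4, had 1 count in rat 7, 5 in rat 9 and 0 in all other rats.

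Cxcl10, the attractant of activated T cells and a marker of interferon signalling, went the other way. It had 3, 8, 26, 3 and 6 counts in sham rats and 7, 10, 0, 0 and 0 counts in stimulated rats. Every sham rat had reads, and stimulated rats 8, 9 and 10 had none, which allows up to 0.192, 0.153 and 0.155 CPM. The level was 0.515 ± 0.538 CPM in sham rats against 0.156 ± 0.220 CPM in the stimulated group (SD, n = 5 each), with sham rat 3 at 1.42 CPM. For Cxcl10 the log2 fold change was -1.56 (SE 0.944, 95% interval -3.59 to 0.47, adjusted p = 0.599), and -2.43 (SE 1.06, unadjusted p = 0.0378, adjusted p = 0.645) without rat 7. Without sham rat 3, which had the most reads, it was -0.70 (unadjusted p = 0.495, adjusted p = 0.862). Of the summed count of 63 for Cxcl10, 26 came from sham rat 3. Without them the sum is under the filter of 46, so Cxcl10 was tested only through the counts of that rat. The 3 rats at 0 were also the 3 with the highest share of unaligned reads, 41.4, 42.9 and 45.1%, against 32.0 to 37.1% in the other rats, and its part in the result was not tested. In rat 7, which had the most Ccl2, Cxcl10 was at 0.464 CPM, near the sham mean.

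The receptors of CCL2 and CXCL10 were taken next, by their role. Ccr2, the receptor of CCL2, had 12 counts in rat 7 and 1 to 9 in sham rats (log2 fold change -0.02, SE 0.658, adjusted p = 0.996). Cxcr3, the receptor of CXCL10 on T cells, had 5, 0, 1, 4 and 0 counts in sham rats and 1, 31, 6, 19 and 6 counts in stimulated rats, of which 4 were above all sham rats in CPM. The fit gave Cxcr3 a log2 fold change of 2.54 (SE 0.891, unadjusted p = 0.0131, adjusted p = 0.414), and 1.97 (unadjusted p = 0.0501) without rat 7, when its summed count of 42 is under the filter.

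Marker lists of other cell types were summed in each rat beside these values, and their part in the results was not tested. The marker counts at an unadjusted p-value under 0.05 stand beside 9.86% of all features, and 7.54% without rat 7. Microglial markers summed to 516 to 624 CPM in sham rats against 550 to 807 CPM in the stimulated group, highest in rats 7 and 9, and 2 of 15 had an unadjusted p-value under 0.05. Within this list Itgam was at 57.4 CPM in rat 7 and 17.3 to 26.8 CPM in sham rats. Astrocytic markers summed to 3586 to 4044 CPM in sham rats and to 9103, 7874 and 4886 CPM in rats 7, 10 and 9, which are the same rats that were high for Tnfrsf1a. Of the 9 markers, 5 had an unadjusted p-value under 0.05, all higher, and 3 did without rat 7. Gfap, the intermediate filament of reactive astrocytes, was at 6469 CPM in rat 7 and 5396 CPM in rat 10 against 1327 to 1927 CPM in sham rats. It made up most of the sums in rats 7 and 10. The log2 fold change of Gfap was 1.06 (unadjusted p = 0.0155, adjusted p = 0.418), and 0.68 (unadjusted p = 0.0579) without rat 7. Without Gfap the list summed to 2081 to 2435 CPM in sham rats and to 2634, 2478 and 2808 CPM in rats 7, 10 and 9. In rat 7 Vim, another filament gene, was at 250.4 CPM against 49.4 to 72.3 CPM in sham rats, while Aldh1l1, a folate enzyme of astrocytes, was at 16.4 CPM against 40.5 to 50.9 CPM and the gap junction gene Gja1 was at 271 CPM against 286 to 355 CPM. Without Gfap and Vim the list summed to 2019 to 2385.4 CPM in sham rats. It summed to 2383.8, 2308 and 2719 CPM in rats 7, 10 and 9, of which only rat 9 was above the sham range.

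Blood leukocyte markers summed to 32.0 to 38.2 CPM in sham rats and 37.0 to 81.3 CPM in stimulated rats, highest in rats 10 and 7. A total of 8 of the 20 were tested, 2 with an unadjusted p-value under 0.05, both higher. Lyz2, a lysozyme of macrophages and granulocytes that microglia can also express, had 980 and 1136 counts in rats 7 and 10 and 243 to 497 in sham rats (log2 fold change 0.84, SE 0.266, adjusted p = 0.396). This gene alone made up most of the leukocyte sums in rats 7 and 10. Cd4, of helper T cells and, in the rat, also of macrophages and microglia, had 141, 197 and 213 counts in rats 8, 9 and 10, 88 in rats 6 and 7, and 50 to 132 in sham rats (log2 fold change 0.76, SE 0.323, adjusted p = 0.459). The 10 markers under the filter, the T-cell genes Cd3e, Cd3d, Cd3g and Cd8a among them, had 0 to 11 counts in every rat. The T-cell gene Cd3e had 2 counts in sham rat 5, 4 in stimulated rat 9 and 0 in all other rats, S100a8, a neutrophil gene, had 0 to 4 counts in every rat, and the pan-leukocyte gene Ptprc had 10 to 22 counts in sham and 7 to 19 counts in stimulated rats. Choroid plexus and meninges markers summed to 35.0 to 62.8 CPM in sham rats against 53.2 to 96.4 CPM in the stimulated group, highest in rat 8. All 10 of these were tested and higher, 2 of them with an unadjusted p-value under 0.05, and the median log2 fold change was 0.49, and 0.60 without rat 7. Red blood cell markers summed to 331 to 837 CPM in sham rats against 413 to 764 CPM in the stimulated group. Endothelial markers were at 239 CPM in rat 7, under the sham range of 252.3 to 267.1 CPM. They were above that range in the other stimulated rats, at 281, 329, 276 and 486 CPM in rats 6, 8, 9 and 10. The markers of this list were mixed in rat 7. There Slco1a4 had 177 counts against 442 to 898 in sham rats. By contrast, Pecam1 had 605 counts there against 219 to 336, and Esam had 446 against 144 to 327. Of these markers, 6 of 11 had an unadjusted p-value under 0.05, all higher. Neuronal markers, with 0 of 10 under that threshold, summed to 5699 to 6379 CPM in sham rats against 5232 to 6204 CPM in the stimulated group. Both neural lists were thus abundant in every library, as the hippocampus label requires.

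The profiles of Tnfrsf1a and Hmgb1 over the 10 rats were compared with those of 11171 features with a symbol and a mean count of 20 or more, as a description. Ccl2 reached that mean through rat 7 alone and is not described in this way. For Tnfrsf1a the nearest were Taf5l1 (Spearman rho 1), Dnttip1 (0.988) and Lgals3 (0.964), the last of which encodes galectin-3, a lectin of activated microglia and macrophages. Hmgb1 was most like Me1 (0.952), Rpa3 (0.939) and Prkab1 (0.927). All points share the same 10 libraries, and no test was made.

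**Figure D3:**
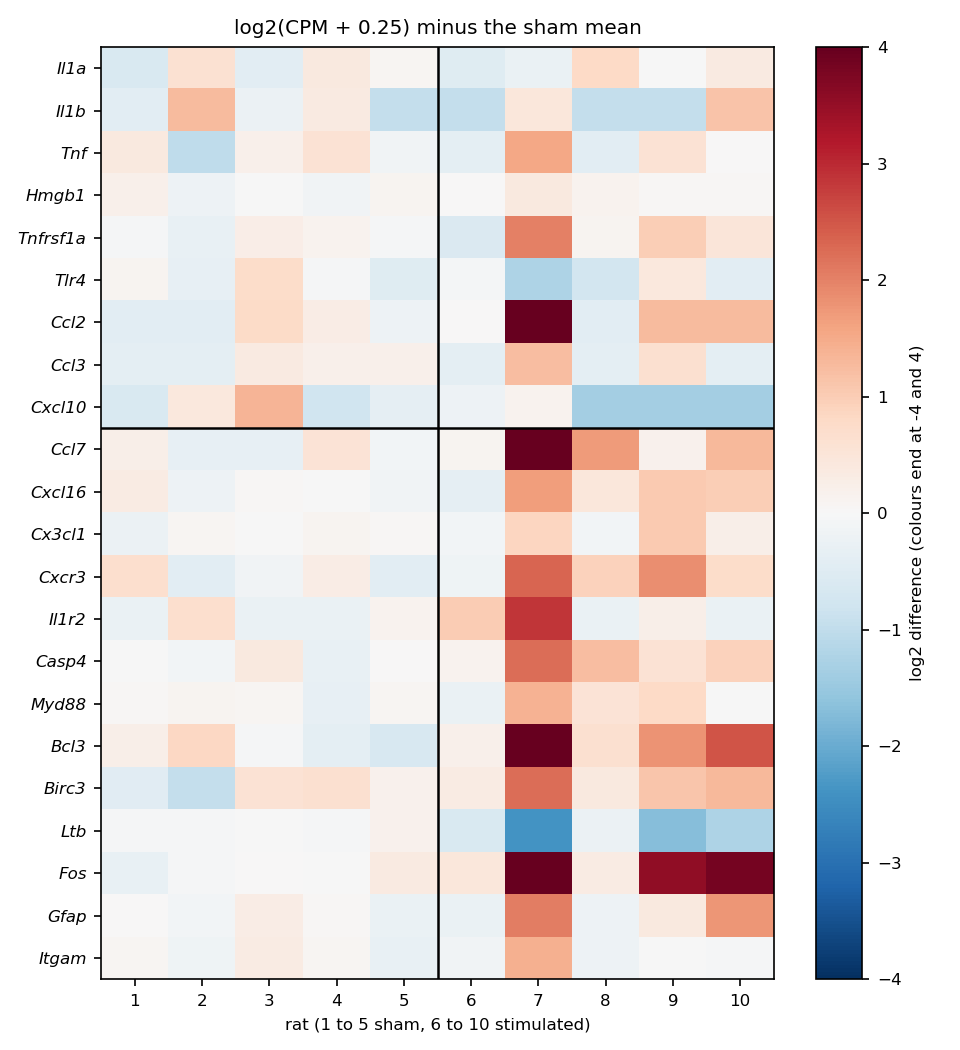
Difference of each rat from the sham mean on the scale log2(CPM + 0.25), in colour from -4 to 4, for the 9 genes above the horizontal line and for further genes below it, with sham rats 1 to 5 left and stimulated rats 6 to 10 right of the vertical line. Stimulated rat 7 is dark red for Ccl2, Ccl7, Bcl3 and Fos and blue for Tlr4 and Ltb, and Cxcl10 is blue in rats 8, 9 and 10.

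The pathways around these genes were then counted in lists that leave out the 10 genes themselves. Of the genes named here, Ltb, Nfkbil1, Bcl3, Mx2, Pecam1, Ptgs2 and Ccl7 are on the study's list for this model. It was drawn from the same set of samples, so their directions are not independent evidence. In no list did a gene pass adjustment over all features, in edgeR's quasi-likelihood test. The counts of every list below stand beside 52.2% of all features higher in stimulated rats. At an unadjusted p-value under 0.05 they stand beside 6.7% of all features higher and 3.16% lower. Il1r2, Ccl7, Cxcr3 and Lif were tested only through the counts of rat 7, as was Cxcl1, with 55 of its 79 counts there. The counts of their lists thus depend in part on that rat. Without rat 7, 2 were higher and 1 lower at that threshold in each of the IL-1 and chemokine ligand lists. For the chemokine receptors and endothelial activation these were 2 and 0. Of the IL-1 family and inflammasome, 20 of 26 genes were tested, 14 were higher and 6 lower, and 4 were higher and 0 lower at an unadjusted p-value under 0.05, beside 6.7% and 3.16% of all features. The median log2 fold change was 0.32, and 0.23 without rat 7. Casp4, an inflammasome caspase that senses lipopolysaccharide in the cytoplasm, had 3.09 ± 0.609 CPM in sham rats against 7.40 ± 4.73 CPM in the stimulated group (SD, n = 5 each), with 4 of 5 stimulated rats above all sham rats. Its log2 fold change was 1.26 (SE 0.343, unadjusted p = 0.00263, adjusted p = 0.376), and 0.80 (unadjusted p = 0.00481) without rat 7.

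The other 3 genes of this list at that threshold were Il1r2, Sigirr and Tollip. Il1r2, the decoy receptor of IL-1, had 0, 3, 0, 0 and 2 counts in sham rats and 8, 42, 0, 2 and 0 counts in stimulated rats. Its fold change on the log2 scale was 3.08 (SE 1.31, adjusted p = 0.459) and 1.13 (unadjusted p = 0.375) without rat 7, when its summed count of 15 is under the filter. Sigirr, a receptor that dampens IL-1 and TLR signals, was at 0.93 (SE 0.371, adjusted p = 0.443), and Tollip, an adaptor that restrains IRAK1, was at 0.39 (SE 0.149, adjusted p = 0.428), and at 0.30 (unadjusted p = 0.0538) without rat 7. Il1rn, the receptor antagonist, was at -0.01 (SE 0.236, adjusted p = 0.992), and the inflammasome sensor Nlrp3 was at 0.51 (SE 0.318, adjusted p = 0.611).

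Of the TNF receptors and signalling genes, 25 of 33 were tested, with 13 higher, 12 lower, and 7 higher and 3 lower at an unadjusted p-value under 0.05. Without rat 7 these became 2 and 2. The median log2 fold change was 0.02, close to that of all features, and became -0.03, -0.02 and -0.04 without rats 8, 9 and 10. Ltb, the gene of lymphotoxin β, was lower in each of the 5 stimulated rats than in any sham rat, at 2.54 ± 0.196 CPM in sham rats against 1.10 ± 0.740 CPM in the stimulated group (SD, n = 5 each). It was at -1.22 on the log2 scale (SE 0.390, unadjusted p = 0.00740, adjusted p = 0.399), and at -0.97 (unadjusted p = 0.00781) without rat 7. Rnf31, the catalytic subunit of the linear ubiquitin ligase used by TNFR1, was at -0.42 (SE 0.118, adjusted p = 0.380). Birc3, an inhibitor of apoptosis bound to TNF receptors and a known target of NF-κB, was at 1.28 (SE 0.457, adjusted p = 0.415), and the death receptor Fas was at 1.48 (SE 0.563, adjusted p = 0.424). Without rat 7 the unadjusted p was 0.0663 for Birc3 and 0.0554 for Fas.

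Of the Toll-like receptors, co-receptors and partners of HMGB1, 20 of 30 genes were tested, 15 were higher and 5 lower, and 2 were higher and 0 lower at an unadjusted p-value under 0.05. The median log2 fold change was 0.19, and 0.10 without rat 7, which had the highest CPM for 8 of the 20. Tlr3, the receptor of double-stranded RNA, was at 0.57 (SE 0.208, adjusted p = 0.418). Myd88, the shared adaptor, had 417 counts in rat 7 against 103 to 181 in sham rats and was at 0.62 (SE 0.265, unadjusted p = 0.0350, adjusted p = 0.464), and at 0.33 (unadjusted p = 0.145) without rat 7.

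Of the NF-κB subunits and inhibitors, a list that also holds kinases and other regulators, 15 of 22 genes had a row and all 15 were tested. A total of 11 were higher and 4 lower, and 3 were higher and 1 lower at an unadjusted p-value under 0.05. The median log2 fold change was 0.17, and 0.15 without rat 7. By their role, the subunit genes Rela and Nfkb2 were at 0.14 (SE 0.120, adjusted p = 0.720) and 0.56 (SE 0.297, adjusted p = 0.552). Bcl3, a nuclear member of the inhibitor family, had 9, 12, 7, 6 and 4 counts in sham rats and 11, 348, 12, 40 and 67 counts in stimulated rats. Rats 7, 9 and 10 were above all sham rats, the same rats as for Tnfrsf1a. The fold change of Bcl3 on the log2 scale was 3.46 (SE 0.881, unadjusted p = 0.00156, adjusted p = 0.376), and 2.00 (unadjusted p = 0.00478) without rat 7. Chuk, the gene of the kinase IKKα, was higher in each of the 5 stimulated rats than in any sham rat, at 10.8 ± 1.25 CPM in sham rats against 15.2 ± 2.39 CPM in the stimulated group (log2 fold change 0.49, SE 0.136, adjusted p = 0.380), and 0.52 without rat 7. Nfkbil1, which resembles the inhibitors, was at -0.55 (SE 0.172, adjusted p = 0.396), and the kinase gene Tbk1 was at 0.22 (SE 0.0981, adjusted p = 0.488), with an unadjusted p of 0.0690 without rat 7.

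Of 33 further chemokine ligands, 31 had a row and 15 were tested, with 10 higher and 5 lower, and 3 higher and 0 lower at an unadjusted p-value under 0.05, Ccl7 among them. The other two were Cxcl16, at 0.94 (SE 0.307, adjusted p = 0.399), with 4 of 5 stimulated rats above all sham rats, and Cx3cl1, at 0.46 (SE 0.202, adjusted p = 0.473), with an unadjusted p of 0.100 without rat 7. Cx3cl1 encodes fractalkine, which neurons present to microglia, and was at 444.2 ± 40.2 CPM in sham rats against 611.7 ± 234 CPM in the stimulated group (SD, n = 5 each). Among genes chosen after their values were seen, Cxcl1, a neutrophil attractant, had 55 counts in rat 7 and 0 to 9 in every other rat. Cxcl12, a chemokine of resting tissue, had the fewest counts in rat 7, 433 against 2063 to 3954 in sham rats, with 1283 to 3571 in the other stimulated rats.

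Of the chemokine receptors, 11 of 23 were tested, 8 were higher and 3 lower, and 3 were higher and 1 lower at an unadjusted p-value under 0.05. Beside Cxcr3 these were Ackr3, a scavenging receptor of CXCL12, at 0.62 (SE 0.214, adjusted p = 0.409), and Cxcr1, a receptor of neutrophil attractants, at 0.91 (SE 0.337, adjusted p = 0.420). Ackr2, a decoy receptor that removes CCL2 and its relatives, had 4, 4, 12, 15 and 11 counts in sham rats and 10, 4, 0, 0 and 1 counts in stimulated rats. It was at -1.61 (SE 0.742, unadjusted p = 0.0480, adjusted p = 0.500), and at -1.71 (unadjusted p = 0.0592) without rat 7.

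Of the interferon response genes, to which Cxcl10 belongs by its regulation, 24 of 29 were tested, 18 were higher and 6 lower, and 2 were higher and 1 lower at an unadjusted p-value under 0.05. The share of higher genes stands beside 52.2% of all features. The median log2 fold change was 0.07, and -0.02 without rat 10. Mx2, an antiviral GTPase, was at -0.58 (SE 0.187, adjusted p = 0.399), Gbp2, a guanylate-binding protein induced by interferon γ, was at 0.72 (SE 0.243, adjusted p = 0.409) with 5 of 5 stimulated rats above all sham rats, and Ifngr1, a chain of the interferon γ receptor, was at 0.29 (SE 0.113, adjusted p = 0.431), with an unadjusted p of 0.0603 without rat 7. For Gbp2 the margin was small, with stimulated rat 6 at 4.98 CPM and sham rat 2 at 4.96 CPM.

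Of the genes of endothelial activation and early cytokine response, 7 of 10 were tested, 5 were higher and 2 lower, and 3 were higher at an unadjusted p-value under 0.05. Pecam1, an adhesion molecule of endothelial cells through which leukocytes cross, was at 13.5 ± 2.42 CPM in sham rats against 23.7 ± 6.64 CPM in the stimulated group (SD, n = 5 each), with 5 of 5 stimulated rats above all sham rats. Its log2 fold change was 0.81 (SE 0.185, unadjusted p = 0.000635, adjusted p = 0.376), and 0.75 without rat 7. Pecam1 is also in the list of endothelial markers, of which 10 of 11 were higher. Ptgs2, the gene of the prostaglandin synthase COX-2, which neuronal activity and IL-1 both induce, was at 2.52 (SE 0.623, adjusted p = 0.376), with 2250, 4459 and 1752 counts in rats 7, 9 and 10 and 185 to 391 in all other rats. Lif, a cytokine of the IL-6 family, was at 2.98 (SE 1.15, unadjusted p = 0.0215, adjusted p = 0.431), with 96 counts in rat 7 and 0 to 15 in all other rats, and at 0.86 (unadjusted p = 0.382) without rat 7, when its summed count of 32 is under the filter. Il6 itself was not tested and had 21 counts in rat 7 and 0 to 2 in every other rat. The leukocyte adhesion gene Icam1 was at 0.58 (SE 0.315, adjusted p = 0.563) and Vcam1 was at -0.003 (SE 0.108, adjusted p = 0.996). The remaining tested genes of the list were Icam2, at 0.48 (SE 0.361, adjusted p = 0.682), and Sele, at -0.35 (SE 0.245, adjusted p = 0.653).

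**Figure D4:**
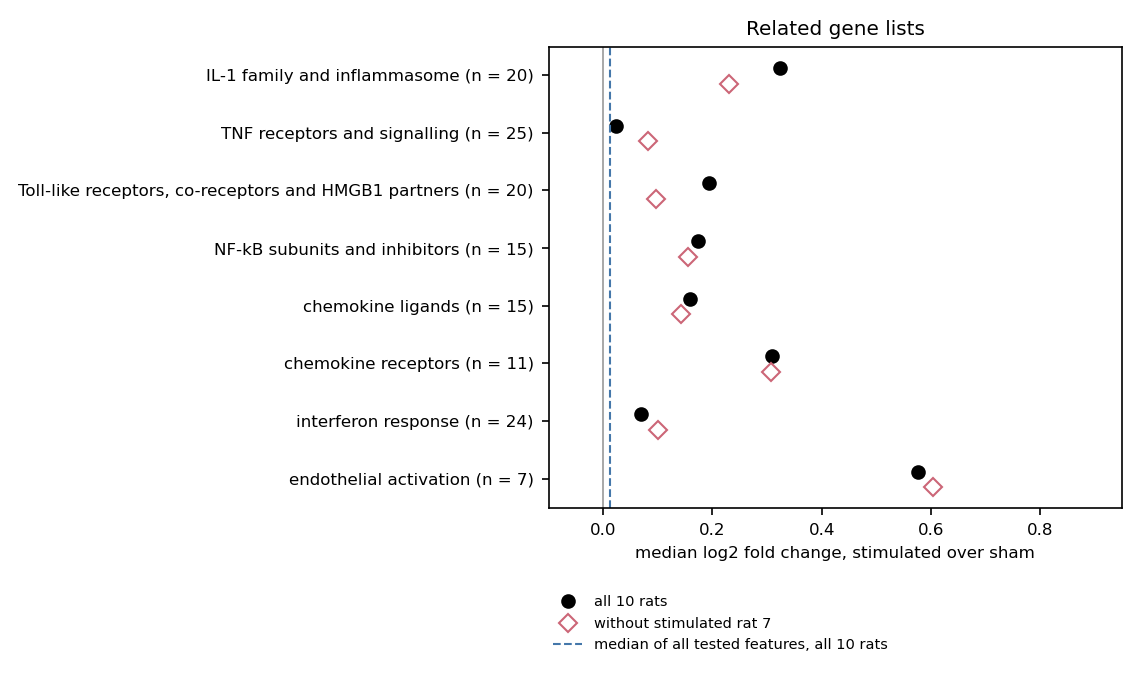
Median log2 fold change, stimulated over sham, of the tested genes of 8 related lists (n beside each name), over all 10 rats as black points and without stimulated rat 7 as open red diamonds, with the median of all tested features, 0.01, as a dashed line. The medians run from 0.02 for TNF receptors and signalling to 0.58 for endothelial activation, and each is above 0 without rat 7, though the TNF median turns to as low as -0.04 and the interferon median to -0.02 when another stimulated rat is left out.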

How the data were processed

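Polyadenylated RNA of the left hippocampus (CA3 and dentate gyrus; the tissue label reads dorsal hippocampus) of 10 rats was read in single reads of 36 cycles. The authors aligned reads with BWA to rn4, per the study's methods, and deposited raw counts per transcript. The methods name an Ensembl annotation, whereas the deposited rows carry RefSeq identifiers. Strand and shared reads are not described. Columns were matched to samples by rat number and groups taken from the treatment label. The methods count fewer stimulated animals than the labels list, so all 10 were used.

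Unaligned reads, which have a row of their own, were kept out. Features with a summed count under the 30th percentile (46) were left out, following the study, which left 22447 of 32041. Groups were compared with edgeR 4.0.16 in R 4.3.3 (quasi-likelihood test, default settings, TMM factors, no covariate), with Benjamini-Hochberg adjustment over all tested features. Symbols came from the RefSeq table of GRCr8 by identifier, and 57.7% of tested features had one. The likelihood ratio test, edgeR's exact test, DESeq2 1.42.0, limma-voom (limma 3.58.1), robust empirical Bayes, other scalings (RLE, upper quartile, library size), no filter, at least 10 counts in 4 rats, and the omission of each rat were alternatives. The fit was tested on simulated counts with the same dispersion for all features and no outlying rat. Changes were placed only in features with a mean count above 20, so genes with lower counts were not covered. Library measures were tested with an exact permutation of the 10 rats, and p-values measure the spread between rats. Python 3.11.15 with numpy 2.4.6, pandas 2.3.3, scipy 1.17.1 and matplotlib 3.10.9 was used.

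The genes and lists were chosen with earlier results of these data known. Besides the 10 genes, the text names up to 4 genes per list with the lowest unadjusted p-values under 0.05, Ccl7, Fos, the 3 features most like each gene with a mean count of 20 or more (not printed for Ccl2), partners named for their role, and those said to be chosen after their values were seen.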

Additional observations from a re-analysis of the deposited data

Results flagged for a closer look

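For each set of 5 rats, the distance from the highest or lowest animal to the next one was divided by the set's whole range and set against Dixon's critical value of 0.71. It was exceeded in 14 of 130 groups, and in 7 of the 14 the rat was stimulated rat 7, the highest of its group. Chance would give 6.5 for independent sets of normally distributed values. Here some sets overlap, some hold only a few counts, and genes were chosen with earlier results known, so no excess over chance can be read from the 14.

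For the 10 genes, Ccl2 in stimulated rats had a gap of 0.985, with rat 7 at 37.1 CPM. The summed CPM of Ccl2, Ccl3 and Cxcl10 had a gap of 0.979 in stimulated rats, with rat 7 at 38.0 CPM, and of 0.748 in sham rats, where rat 3 was the highest at 1.90 CPM. Among related genes in stimulated rats, rat 7 was also apart for Ccl7, with a gap of 0.975 at 26.7 CPM, for Itgam, with 0.931 at 57.4 CPM, for Lif, with 0.826 at 4.46 CPM, for Il1r2, with 0.814 at 1.95 CPM, and for Bcl3, with 0.811 at 16.2 CPM.

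In sham rats, rat 5 was the highest for Ltb, with a gap of 0.857 at 2.89 CPM. Rat 4 was the lowest for Myd88, with a gap of 0.856 at 5.79 CPM, and for the summed list of Toll-like receptors, co-receptors and partners of HMGB1, with a gap of 0.754 at 566 CPM. Rat 2 was the highest for S100a9, with a gap of 0.722 at 0.840 CPM, from 11 counts. Cd3e had reads in 1 rat of each group, sham rat 5 and stimulated rat 9, with a gap of 1 in both groups and levels of 0.0838 and 0.204 CPM.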

How the results depend on the processing

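At an adjusted p-value under 0.05, edgeR's quasi-likelihood test called 0 features over all rats and whichever rat was omitted (0 to 0), and likewise under the other scalings and filters, robust empirical Bayes and limma-voom, while 1693 to 3131 features had an unadjusted p-value under 0.05 when 1 rat was omitted. The number called was 119 in the likelihood ratio test, 90 in edgeR's exact test and 33 in DESeq2, and the cause was not tested. None of the 8 tested genes was among them, and DESeq2 gave no p-value for Ccl2 and Ccl7. Of the 8, 2 had an unadjusted p-value under 0.05. This became 1 with at least 10 counts in 4 rats, where Il1b, Tnf, Ccl2 and Cxcl10 were not tested, 0 in DESeq2, 0 in limma-voom, 1 with robust empirical Bayes, and 1 to 2 when 1 rat was left out (1 without rats 1, 2, 5, 7 or 9).

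When 1 rat was left out, the log2 fold change ranged from -0.21 to 0.27 for Il1a, from -1.33 to 0.58 for Il1b and from -0.20 to 0.88 for Tnf, which alone among the ranges that crossed 0 did so through rat 7. It kept its sign for Hmgb1 (0.05 to 0.18), Tnfrsf1a (0.35 to 1.07, adjusted p 0.154 to 0.789), Tlr4 (-0.78 to -0.16), Ccl2 (1.41 to 6.80, adjusted p 0.123 to 0.789) and Cxcl10 (-2.43 without rat 7 to -0.70 without sham rat 3). Across the other settings Ccl2 lay between 2.77 (limma-voom) and 6.14 and Tnfrsf1a between 0.60 and 0.88. Ccl7 had an adjusted p of 0.0218 in the likelihood ratio test and of 0.0364 in edgeR's exact test. Each gene had 1 row, so no choice between rows was tried. Depth limits Il1a, Il1b, Tnf, Tlr4, Ccl3 and Cxcl10, with mean counts under 20 per rat, and also Ccl2, with 0 to 11 counts in every rat but rat 7. No paired analysis was possible because the labels give no number that the groups share.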
